A study of Mus musculus with 30 samples.

Results

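Elastic fibre and collagen crosslinking genes were followed in fibroblasts driven towards skeletal muscle by MyoD. The set was the symbols Lox, Loxl1, Loxl2, Eln, Fbn1, Fbln5, Mfap4, Mfap5, Efemp1 and Postn, with every probe set (the group of oligonucleotides that reads a transcript) assigned to 1 of them alone. Of these 10 genes, 8 were measured, by 14 of 45037 probe sets and among 18193 genes in all. The annotation used here listed no probe set for Fbn1. Both probe sets listed for Loxl2 also carry the symbol Gm21451, so no value is given as that of Loxl2.

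The genes were chosen by function and with the signals of wild-type ER-MyoD and empty retrovirus cells at 24 h in view, where Lox, Postn, Mfap4 and Efemp1 were lower in the wild type. Values of that difference, and of others that use the same arrays, are therefore a description with no test. All cells were mouse embryonic fibroblasts from MyoD-/-/Myf5-/- animals. A first retrovirus carried MyoD joined to the estrogen receptor (ER-MyoD wt), another carried this protein with lysines 99, 102 and 104 replaced by residues that take no acetyl group (ER-MyoD RRR), and the control virus was empty (empty retrovirus). With 3 arrays in each of 10 groups, 30 arrays covered 0, 6, 12 and 24 h of differentiation medium for ER-MyoD wt, and 6, 12 and 24 h for the other constructs. Beta-estradiol, which switches the fusion on, is stated in the series text for the ER-MyoD cells, while the labels of the empty retrovirus arrays name the medium only. No 0 h array of ER-MyoD RRR or empty retrovirus was analysed here, so a gap at 6 h may be older than the medium change. The labels do not say that replicates were separate cultures, and the p-values therefore reflect array-to-array spread alone, which may be technical.

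Elastic fibres are built from microfibrils, on which elastin is deposited and crosslinked. Lysyl oxidases oxidise lysines of elastin and of fibrillar collagens, and the crosslinks that follow make the fibres insoluble. Fibulins, microfibril-associated proteins and periostin help to bring these parts together, and fibroblasts and smooth muscle cells are main producers.

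Of 10 fibroblast markers all 10 reached a group mean signal of at least 100, and Col1a2 lay between 5637 and 9566 in every group. Myod1 had a mean of 897 ± 200 (SD, n = 3) in ER-MyoD wt, 863 ± 479 in ER-MyoD RRR and 167 ± 32.0 in empty retrovirus cells at 6 h. At 12 h it was 802 ± 303 in ER-MyoD wt and 535 ± 264 in ER-MyoD RRR, and Myog, the factor that follows MyoD, was at 613, 158 and 7.15 in ER-MyoD wt, ER-MyoD RRR and empty retrovirus cells at 12 h. The list of macrophage and blood markers had a highest group mean of 493 (Csf1r), that of epithelial markers 419 (Epcam), that of endothelial markers 112, and that of adipocyte markers 54.5. Pearson's r among arrays of a group ran from 0.926 to 0.966. Of 3 arrays that stood apart, ER-MyoD RRR 6 h replicate 2 had ratios of 3' to 5' signal of 2.44 for Gapdh and 3.61 for Actb, above all other arrays. The others were empty retrovirus 12 h replicate 1, with the highest median signal (64.1), and ER-MyoD wt 24 h replicate 3.

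RefSeq promoter windows (GRCm38.p6) were available for 3 of the 8 measured genes. These genes were Efemp1, Postn and Fbln5, and a window of each is shown. Each is the 250 bases before a transcript start, with capitals on any E-box (CANNTG, the letters that MyoD and other bHLH factors bind) and on any TATAAA, searched on both strands. They stand for Efemp1 at chr11:28852955-28853204 on the plus strand, Postn at chr3:54360857-54361106 on the plus strand and Fbln5 at chr12:101819120-101819369 on the minus strand.
Efemp1: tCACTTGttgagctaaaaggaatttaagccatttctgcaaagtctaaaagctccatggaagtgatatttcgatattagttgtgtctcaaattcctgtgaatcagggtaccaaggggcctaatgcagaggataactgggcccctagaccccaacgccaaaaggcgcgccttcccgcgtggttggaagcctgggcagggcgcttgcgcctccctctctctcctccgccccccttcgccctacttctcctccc
Postn: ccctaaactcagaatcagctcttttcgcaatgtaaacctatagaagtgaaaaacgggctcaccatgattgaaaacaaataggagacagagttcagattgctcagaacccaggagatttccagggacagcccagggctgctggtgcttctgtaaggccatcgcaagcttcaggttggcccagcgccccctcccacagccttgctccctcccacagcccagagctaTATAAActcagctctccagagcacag
Fbln5: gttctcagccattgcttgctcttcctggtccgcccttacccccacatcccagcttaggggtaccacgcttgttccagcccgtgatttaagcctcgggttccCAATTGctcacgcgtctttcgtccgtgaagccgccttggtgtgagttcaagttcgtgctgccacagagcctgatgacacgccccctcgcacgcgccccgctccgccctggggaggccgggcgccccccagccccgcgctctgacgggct

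The Efemp1 window held the E-box CACTTG, starting 249 bases before the transcript start, and the Fbln5 window held CAATTG, starting 149 bases before it. The Postn window held TATAAA from 26 bases before the start and no E-box. Of all 32851 windows of this length, 66.2% held an E-box and 12.4% held TATAAA. The E-box forms CAGCTG and CAGGTG, searched separately, were in none of the windows shown. Of all windows, 13.0% held CAGCTG and 17.2% held CAGGTG. These matches describe letters only. The window of a further start of Postn, and that of a further start of Fbln5, held no E-box and no TATAAA.

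The crosslinking enzymes came first. Lox, for lysyl oxidase itself, was high early in ER-MyoD wt and low there at 24 h. At 0 h its signal in ER-MyoD wt was 2204, 2524 and 1962 in replicates 1 to 3, and at 6 h it was 2060, 1941 and 2024. At 6 h it was 1061, 1256 and 1249 in ER-MyoD RRR and 1064, 964 and 948 in empty retrovirus cells. Every ER-MyoD wt array at 6 h lay above all arrays of the other constructs at that time. On the normalised log2 scale ER-MyoD wt exceeded empty retrovirus by 0.87 ± 0.13 (model SE, adjusted p = 1.84e-05, limma), and ER-MyoD RRR lay below ER-MyoD wt by -0.78 ± 0.13 (adjusted p = 0.000738). ER-MyoD RRR and empty retrovirus differed by 0.09 ± 0.13 at 6 h (adjusted p = 0.768, limma).

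At 12 h Lox had fallen in ER-MyoD wt to 1144, 1214 and 1005, with 675, 768 and 812 in ER-MyoD RRR and 812, 926 and 891 in empty retrovirus cells. The fall from 6 h to 12 h was -0.83 ± 0.13 in ER-MyoD wt (adjusted p = 0.000322, limma) and -0.59 ± 0.13 in ER-MyoD RRR (adjusted p = 0.00593). ER-MyoD RRR still lay below ER-MyoD wt at 12 h by -0.55 ± 0.13 (adjusted p = 0.027). That call did not hold under median centring (0.119), nor without ER-MyoD RRR replicate 1 (0.156) or 2 (0.0692) or ER-MyoD wt replicate 1 (0.114) or 2 (0.149). At 24 h ER-MyoD wt was the lowest and the control the highest. Lox was at 506, 382 and 480 in ER-MyoD wt, 1002, 1004 and 783 in ER-MyoD RRR and 2221, 1869 and 1793 in empty retrovirus cells, and the 3 groups did not overlap. The mean in empty retrovirus cells was 2.24 times that at 12 h, and 4.30 times that in ER-MyoD wt at 24 h. The 24 h gap to the control therefore joined a fall in ER-MyoD wt and a higher level in the control than at 12 h. The highest Lox means over the 10 groups belonged to ER-MyoD wt at 0 h, ER-MyoD wt at 6 h and the control at 24 h, which overlapped array by array. ER-MyoD wt at 24 h was lowest and overlapped no other group.

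A further bright Lox probe set had the same calls at 6 h, with ER-MyoD wt minus empty retrovirus at 1.01 (adjusted p = 0.0228 over all probe sets, limma) and ER-MyoD RRR minus wt at -1.37 (adjusted p = 0.00825). At 24 h it put ER-MyoD RRR (279 ± 36.1, SD, n = 3) closer to ER-MyoD wt (220 ± 38.6) than to empty retrovirus (917 ± 175). From 6 h to 12 h in ER-MyoD RRR it was at -0.22 (adjusted p = 0.84), and the average of all Lox probe sets at -0.35 (adjusted p = 0.131), so the fall there had a call by the brightest probe set only. The last Lox probe set was dim, with group means from 32.0 to 59.7.

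Loxl1, a lysyl oxidase needed for the renewal of elastic fibres, varied little by its brighter probe set. The group means of that probe set ran from 1775 in ER-MyoD wt at 24 h to 2935 in ER-MyoD wt at 0 h, and in the order of the means every group overlapped its neighbour. In ER-MyoD wt it was lower at 12 h than at 0 h by -0.48 ± 0.13 (adjusted p = 0.00591, limma). At 6 h its signals in ER-MyoD RRR were 3032, 2139 and 3236, where replicate 2, with the high 3' to 5' ratios, was the lowest. ER-MyoD RRR minus wt was 0.27 ± 0.13 at 6 h (adjusted p = 0.283), and 0.47 without that array (adjusted p = 0.0148). Against empty retrovirus, ER-MyoD RRR was at 0.28 ± 0.13 at 6 h (adjusted p = 0.169) and at 0.48 without that array (adjusted p = 0.00372). This difference also passed under median centring (0.64, adjusted p = 0.016), as deposited (0.48, adjusted p = 0.00682) and with both probe sets averaged (0.79, adjusted p = 0.00365). The dimmer Loxl1 probe set had group means from 61.8 to 205, again highest in ER-MyoD wt at 0 h. By that probe set ER-MyoD RRR exceeded empty retrovirus at 6 h by 1.31 (adjusted p = 0.0205 over all probe sets, limma), and ER-MyoD wt was lower at 12 h than at 0 h by -1.21 (adjusted p = 0.026).

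**Figure D1:**
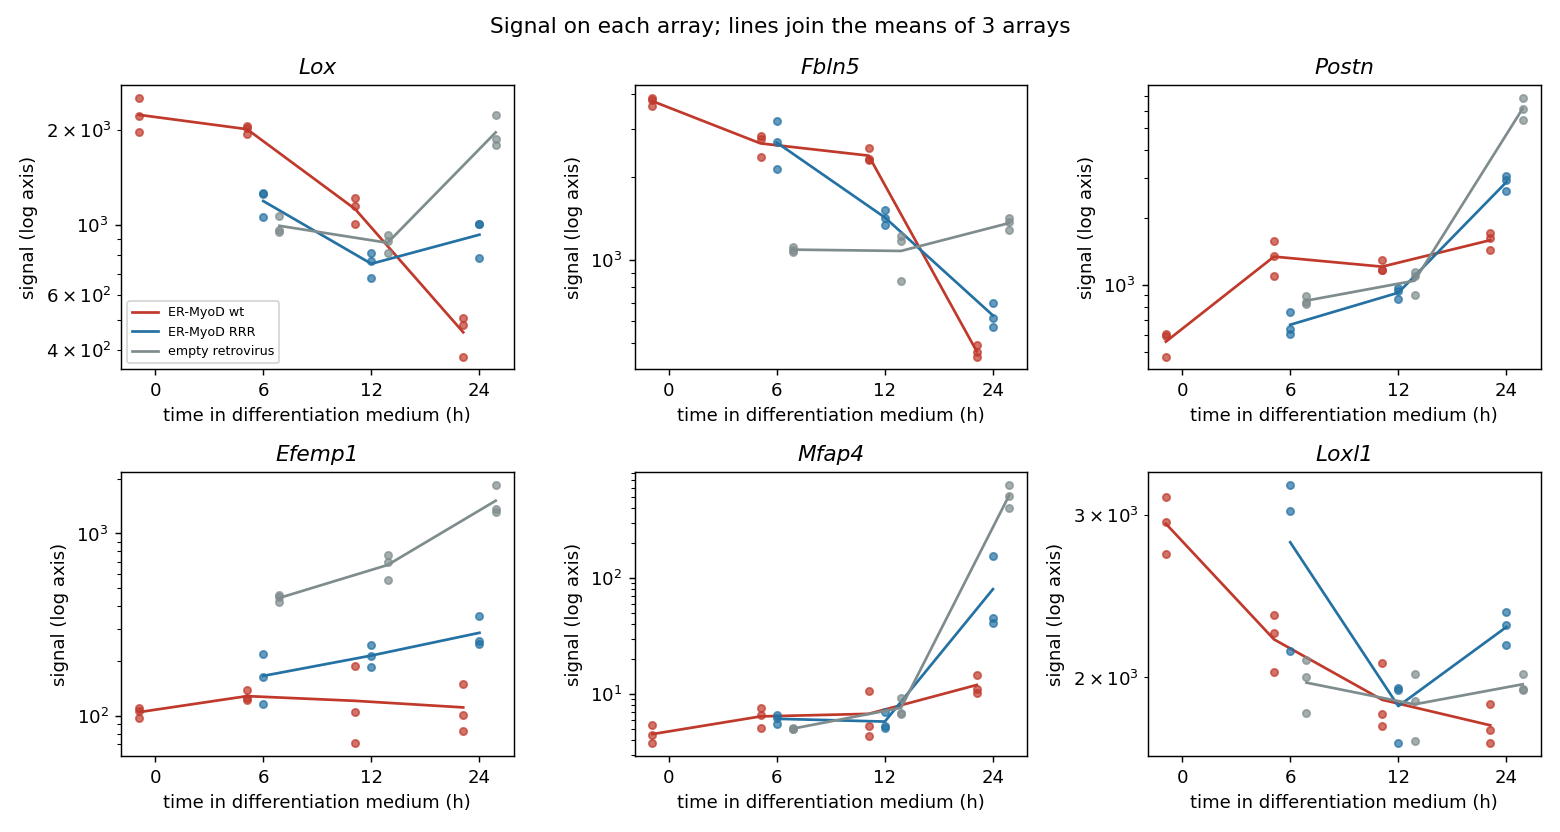
Signal of 6 genes on each array (log axis) against time in differentiation medium, with ER-MyoD wt in red, ER-MyoD RRR in blue and empty retrovirus in grey; points are arrays and lines join the means of 3 arrays. Lox and Fbln5 start high in ER-MyoD wt and are lowest there at 24 h, Postn and Mfap4 are highest in empty retrovirus cells at 24 h, and Efemp1 is higher in empty retrovirus cells at each time measured.

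Fbln5, for fibulin-5, which binds elastin, integrins and lysyl oxidase-like enzymes during fibre assembly, was higher in both ER-MyoD cells than in the control at 6 h. Its signal at 6 h was 2756, 2833 and 2379 in ER-MyoD wt, 2678, 2150 and 3198 in ER-MyoD RRR and 1114, 1073 and 1090 in empty retrovirus cells. Both ER-MyoD groups lay wholly above the control and overlapped each other. ER-MyoD wt minus empty retrovirus was 1.11 ± 0.12 (adjusted p = 5.09e-08, limma) and ER-MyoD RRR minus empty retrovirus 1.05 ± 0.12 (adjusted p = 2.07e-07). In ER-MyoD wt at 0 h the signal was already 3822, 3887 and 3639, above every 6 h array, so the gap at 6 h did not follow a rise after 0 h.

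At 12 h the mutant had parted from the wild type. Fbln5 was at 2562, 2306 and 2326 in ER-MyoD wt, 1525, 1344 and 1420 in ER-MyoD RRR and 841, 1226 and 1174 in empty retrovirus cells, with no overlap between the 3 groups. ER-MyoD RRR lay below ER-MyoD wt by -0.73 ± 0.12 (adjusted p = 0.000445, limma), and 1.03 ± 0.12 separated ER-MyoD wt from empty retrovirus (adjusted p = 1.54e-07). Under median centring the first value was -0.71 (adjusted p = 0.0839). The change of ER-MyoD RRR minus wt from 6 h to 12 h was -0.67 ± 0.17 and did not pass (adjusted p = 0.0921). It passed without ER-MyoD RRR 6 h replicate 2 (-0.83, adjusted p = 0.00759). In ER-MyoD RRR itself Fbln5 fell from 6 h to 12 h by -0.81 ± 0.12 (adjusted p = 7.68e-05), and from 12 h to 24 h by a further -1.07 ± 0.12 (adjusted p = 9.2e-08). At 24 h it was at 491, 462 and 447 in ER-MyoD wt, 701, 615 and 573 in ER-MyoD RRR and 1382, 1292 and 1419 in empty retrovirus cells. The order at 12 h was thus inverted at 24 h, and the groups again did not overlap. ER-MyoD wt ran from the highest mean of the series at 0 h (3783) to the lowest at 24 h (466). The other Fbln5 probe set was dim, with group means from 14.1 to 46.7, and had no call in these comparisons. Averaged with it, ER-MyoD wt minus empty retrovirus at 12 h was 0.12 (adjusted p = 0.768) and ER-MyoD RRR minus wt -0.19 (adjusted p = 0.846). The change within ER-MyoD RRR from 12 h to 24 h was then -0.45 (adjusted p = 0.112).

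Markers of smooth muscle and myofibroblasts, cells that also make elastic fibres, were higher in both ER-MyoD cells than in the control at 6 h, as was Fbln5, whereas Lox was higher in ER-MyoD wt alone. All 7 of 7 listed markers were measured. Their summed signal at 6 h ranged from 16500 to 21170 in ER-MyoD wt, from 12040 to 15380 in ER-MyoD RRR and from 1421 to 1734 in empty retrovirus cells. It was 19910 to 28520 in ER-MyoD wt at 0 h. Acta2 and Tagln carried most of it, while the group means of Cnn1 stayed between 5.56 and 17.5 and those of Myh11 between 4.65 and 34.0, and no marker was at 0. Their part in the Fbln5 result was not tested. In RNA from whole cultures, fewer cells of a type and less RNA per cell cannot be told apart.

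Efemp1, for fibulin-3, a relative of fibulin-5, was the only measured gene of the set that was lower in both ER-MyoD cells at both 6 h and 12 h. At 6 h its signal was 125, 138 and 122 in ER-MyoD wt, 164, 218 and 116 in ER-MyoD RRR and 448, 421 and 461 in empty retrovirus cells. At 12 h it was 105, 70.7 and 187 in ER-MyoD wt, 185, 245 and 213 in ER-MyoD RRR and 553, 761 and 702 in empty retrovirus cells. The control arrays lay above all others at each time, while both ER-MyoD groups overlapped. ER-MyoD wt minus empty retrovirus was -1.58 ± 0.25 at 6 h (adjusted p = 3.03e-05, limma) and -2.40 ± 0.25 at 12 h (adjusted p = 2.45e-08). ER-MyoD RRR minus empty retrovirus was -1.27 ± 0.25 at 6 h (adjusted p = 0.000575) and -1.60 ± 0.25 at 12 h (adjusted p = 3.7e-05). In ER-MyoD wt at 0 h it was 111, 97.3 and 106, so the low signal in these cells did not follow a fall after 0 h. Whether the control was higher at 0 h is not known, as no such array was analysed.

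ER-MyoD RRR had more Efemp1 signal than ER-MyoD wt at 12 h by 0.80 ± 0.25, which did not pass (adjusted p = 0.122, limma). Without ER-MyoD wt 12 h replicate 3, the highest of its group, the difference was 1.15 (adjusted p = 0.00986). At 24 h Efemp1 was at 102, 149 and 83.2 in ER-MyoD wt, 351, 249 and 256 in ER-MyoD RRR and 1366, 1853 and 1317 in empty retrovirus cells, with no overlap. In the control the mean at 24 h was 2.25 times that at 12 h. All 4 ER-MyoD wt groups had means between 105 and 128 and overlapped as neighbours in the order of the means.

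The microfibril-associated genes split. Mfap4, for a microfibril protein that binds elastin and collagen, lay near the bottom of the scale in 7 of 10 groups, with means between 4.52 and 7.61 at 0, 6 and 12 h. At 24 h it was at 398, 638 and 512 in empty retrovirus cells, 155, 40.8 and 44.8 in ER-MyoD RRR and 11.1, 10.3 and 14.6 in ER-MyoD wt. The 3 groups did not overlap, and the first ER-MyoD RRR array stood well above the other 2. Within ER-MyoD RRR, Mfap4 rose from 12 h to 24 h by 1.78 ± 0.28 (adjusted p = 2.74e-05, limma). In the control the difference from 12 h to 24 h was 4.51 ± 0.28 with 16 added to each signal before the logarithm, and 6.04 with 1 added. The sizes for this gene are therefore bound to that choice.

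Mfap5, for the microfibril protein MAGP-2, and Eln, for elastin itself, were dim throughout and had no call in any tested comparison. The brighter Mfap5 probe set had group means from 37.4 to 67.8 and the other from 11.8 to 46.4. The brighter Eln probe set had group means from 76.8 to 151.5 and the other from 9.28 to 14.7. The largest Eln difference between constructs was 0.65 ± 0.26, for ER-MyoD wt minus empty retrovirus at 12 h (adjusted p = 0.106, limma). The files hold no detection calls, so a signal of this size was not told from background.

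Postn, for periostin, a matricellular protein that helps lysyl oxidase act on collagen, differed early between the fusions and rose late. In ER-MyoD wt its signal was 604, 593 and 479 at 0 h, then 1570, 1095 and 1352 at 6 h. At 6 h it was 636, 754 and 604 in ER-MyoD RRR and 892, 841 and 822 in empty retrovirus cells, so the wild type was highest, the mutant lowest, and no groups overlapped. ER-MyoD RRR minus wt was -0.94 ± 0.12 (adjusted p = 2.5e-05, limma), the largest difference between the fusions in this set at 6 h. ER-MyoD wt rose by 1.17 ± 0.12 from 0 h to 6 h (adjusted p = 3.44e-08). Its excess over empty retrovirus at 6 h was 0.49 ± 0.12 (adjusted p = 0.00578), and did not pass without ER-MyoD wt replicate 1, the highest of its group (0.37, adjusted p = 0.0644). ER-MyoD RRR lay below empty retrovirus by -0.46 ± 0.12 (adjusted p = 0.00982). That call was lost under median centring (-0.20, adjusted p = 0.577), without ER-MyoD RRR replicate 3 (0.0677) and without empty retrovirus replicate 1 (0.0538).

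By 12 h the 3 constructs were closer, at 1287, 1170 and 1166 in ER-MyoD wt, 938, 864 and 971 in ER-MyoD RRR and 900, 1139 and 1097 in empty retrovirus cells. The ER-MyoD wt arrays still lay above all others at 12 h, while ER-MyoD RRR and empty retrovirus overlapped. ER-MyoD RRR minus wt was -0.355 ± 0.121 (adjusted p = 0.178, limma). ER-MyoD wt minus empty retrovirus was 0.078 ± 0.121 (adjusted p = 0.773). At 24 h Postn was at 1618, 1700 and 1438 in ER-MyoD wt, 3072, 2934 and 2640 in ER-MyoD RRR and 6108, 6844 and 5439 in empty retrovirus cells, without overlap. Within ER-MyoD RRR it rose from 12 h to 24 h by 1.75 ± 0.12 (adjusted p = 1.27e-11, limma). The mean in the control at 24 h was 5.86 times that at 12 h. In ER-MyoD wt the mean at 24 h was also its highest, and it overlapped that at 6 h. For Postn the low 24 h level against the control was thus no fall in ER-MyoD wt, unlike that of Lox and Fbln5.

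**Figure D2:**
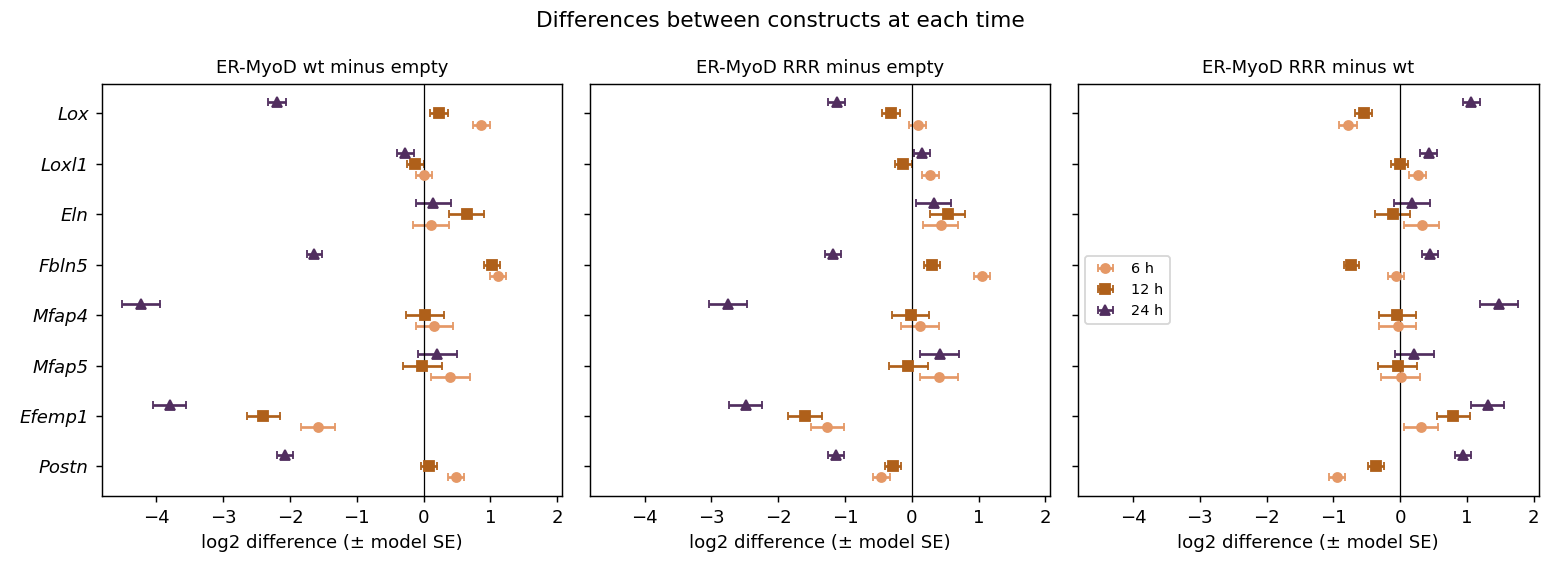
Differences of the 8 measured genes between constructs on the normalised log2 scale, with the standard error of the model as bars, at 6 h (circles), 12 h (squares) and 24 h (triangles, description only). Lox and Fbln5 lie right of 0 at 6 h and left of it at 24 h for ER-MyoD wt minus empty, and Lox, Fbln5 and Postn turn from left or near 0 to right for ER-MyoD RRR minus wt.

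Counted over the set, ER-MyoD wt exceeded empty retrovirus at 6 h in 3 of 8 genes (Lox, Fbln5, Postn; 6.50% of all genes were higher) and lay below it in 1 (Efemp1; 6.23% were lower). The median difference was 0.28, against -0.01 over all genes. At 12 h 1 of 8 was higher (Fbln5, against 7.16% of all genes) and 1 lower (Efemp1, against 8.26%), with a median of 0.05 against -0.02. ER-MyoD RRR minus empty retrovirus had 1 higher (Fbln5, against 7.18% of all genes) and 2 lower (Efemp1 and Postn, against 6.63%) at 6 h, and 1 lower (Efemp1, against 4.97%) at 12 h. The medians were 0.20 at 6 h and -0.09 at 12 h, with 0.05 and -0.02 over all genes. The set was chosen with earlier results of these data known, so its counts and medians are not independent of the data.

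Between the fusions, ER-MyoD RRR was lower in 2 of 8 genes at 6 h (Lox, Postn) and in 2 at 12 h (Lox, Fbln5), where 2.03% and 0.879% of all genes were lower. None of the 8 was called higher in ER-MyoD RRR at these times (1.63% and 0.874% of all genes were). The set's median was -0.02 at 6 h and -0.08 at 12 h, against 0.05 and 0.01 over all genes. At 12 h the count was 0 under median centring and 0 with all probe sets of a gene averaged. No gene passed for the change of this difference from 6 h to 12 h (limma, 0.203% of all genes). The largest changes were -0.67 for Fbln5 (adjusted p = 0.0921, limma) and 0.588 for Postn (adjusted p = 0.163). Without the 3 arrays that stood apart, 2 of 8 passed. At 24 h, for description, ER-MyoD RRR minus wt ran from 0.18 ± 0.26 for Eln to 1.48 ± 0.28 for Mfap4. The median was 0.70 over the set and 0.003 over all genes. For Eln and Mfap5 (0.21 ± 0.29) the difference was smaller than its standard error. With all its probe sets averaged, Mfap5 was lower in ER-MyoD RRR (-0.49). The ER-MyoD wt arrays at 24 h were among those used to choose the set for low values there, so these differences are not independent of that choice. ER-MyoD wt minus empty retrovirus at 24 h, which helped to choose the set, was -4.23 for Mfap4, -3.80 for Efemp1, -2.19 for Lox, -2.07 for Postn and -1.63 for Fbln5. ER-MyoD RRR minus empty retrovirus was -2.75, -2.49, -1.13, -1.13 and -1.18 in the same order. These comparisons share arrays.

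Over time, empty retrovirus cells had no call in the set from 6 h to 12 h (limma, 0.203% of all genes). The largest differences there were 0.604 for Efemp1 (adjusted p = 0.483, limma) and 0.306 for Postn (adjusted p = 0.455). ER-MyoD wt had 2 calls from 0 h to 6 h (Postn higher, as were 9.52% of all genes, and Fbln5 lower, as were 8.20%), 4 from 0 h to 12 h (Postn higher, against 10.5%, and Lox, Loxl1 and Fbln5 lower, against 9.85%) and 1 from 6 h to 12 h (Lox lower, against 1.19%). The Fbln5 fall by 6 h (-0.36, adjusted p = 0.0312) did not pass under median centring (0.0752), without any single ER-MyoD wt 0 h array (0.0576 to 0.0924) or without ER-MyoD wt 6 h replicate 1 (0.0519) or 3 (0.147). ER-MyoD RRR had 4 calls from 6 h to 12 h (Postn higher, against 3.02%, and Lox, Loxl1 and Fbln5 lower, against 2.45%). Under median centring only Lox and Fbln5 remained. The Postn rise of 0.49 did not pass without any of 4 single arrays (adjusted p from 0.0565 to 0.0955), namely ER-MyoD RRR replicates 1 and 3 at 6 h and at 12 h, nor the Loxl1 fall of -0.48 without replicates 1 or 3 at 6 h or 2 or 3 at 12 h (0.061 to 0.146).

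From 12 h to 24 h ER-MyoD RRR had 4 genes higher (Lox, Loxl1, Mfap4 and Postn, against 7.15% of all genes) and 1 lower (Fbln5, against 8.27%). Lox (0.41 ± 0.13, adjusted p = 0.0307) and Loxl1 (0.41 ± 0.13, adjusted p = 0.0272) did not pass under median centring (0.06 and 0.05), which moved the median of all genes to -0.13. Neither passed as deposited, nor without replicate 1 or 2 at 24 h. Leaving out replicate 1 or 2 at 12 h also ended the Lox call, and replicate 2 or 3 the Loxl1 call. Averaged over all their probe sets the signs turned (-0.03 and -0.06). From 6 h to 24 h Postn (2.23 ± 0.12) and Mfap4 (1.77 ± 0.28) were higher in ER-MyoD RRR (adjusted p = 4.45e-14 and 1.52e-05, limma, with 11.0% of all genes higher), and Fbln5 (-1.88 ± 0.12, adjusted p = 1.14e-12) was lower (12.9%). Efemp1 (0.63, adjusted p = 0.067) passed without ER-MyoD RRR 6 h replicate 2 (0.83, adjusted p = 0.0235). It also passed as deposited (adjusted p = 0.016) and with a filter on low signal (0.0471). Lox (-0.18, adjusted p = 0.394) passed as lower under median centring (-0.59, 0.00523), as deposited (-0.35, 0.0395) and with probe sets averaged (-0.38, 0.0302). Loxl1 (-0.075, adjusted p = 0.769) passed as lower under median centring (-0.52, 0.0333) and with probe sets averaged (-0.54, 0.0329).

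Other genes that build or process these fibres, from a list of 45 of which 41 were measured, were mostly higher in ER-MyoD wt than in empty retrovirus cells at 6 h where they passed. This list was chosen with earlier results of these data known, so its counts and medians are not independent of the data. Of the 41, 14 were higher and 1 lower at 6 h, where 6.50% of all genes were higher and 6.23% lower. At 12 h 7 were higher and 3 lower, against 7.16% and 8.26% of all genes. The medians were 0.29 and 0.13, with -0.01 and -0.02 over all genes. Between the fusions, ER-MyoD RRR was higher in 5 and lower in 0 at 6 h (1.63% and 2.03% of all genes), and higher in 2 and lower in 1 at 12 h (0.874% and 0.879%). The 5 at 6 h became 1 under median centring, 3 without ER-MyoD RRR replicate 2 or without ER-MyoD wt replicate 1, and 2 without any other single array of either group.

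Among the other lysyl oxidases Loxl3 was higher in ER-MyoD wt at 6 h, at 789 ± 56.5 (SD, n = 3) against 285 ± 16.8 in the control (1.41, adjusted p = 5.78e-09, limma), and Loxl4 had no call. At 12 h the Loxl3 difference was 0.05 (adjusted p = 0.877). Unlike Lox, Loxl3 was higher in ER-MyoD RRR than in ER-MyoD wt at 6 h (0.47, adjusted p = 0.0442). That call was lost in 11 alternatives (adjusted p from 0.0542 to 0.176). Among them were median centring (0.11) and leaving out any single array of either group. Of 6 microfibril and latent TGF-beta binding genes, Ltbp2 was higher at 6 h and 12 h (0.88 and 1.09) and Ltbp1 lower at 12 h (-0.55, adjusted p = 0.00741, and 0.359 under median centring). Of 7 other fibulins and emilins, Emilin2, for an elastin-associated glycoprotein, was at 1148 ± 29.6 in ER-MyoD RRR against 521 ± 22.4 in ER-MyoD wt at 12 h (1.08, adjusted p = 2.58e-05), and was the only one of them with a call in these 4 comparisons.

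Of 18 genes of procollagen modification and processing, 6 were higher and 1 lower in ER-MyoD wt than in empty retrovirus cells at 6 h, against 6.50% and 6.23% of all genes. P4ha2, a subunit of the enzyme that hydroxylates procollagen prolines, was higher at 12 h at 855 ± 66.9 against 414 ± 15.2 in the control (0.996, adjusted p = 5.18e-08, limma). In ER-MyoD RRR it was at 411 ± 45.5, below ER-MyoD wt by -1.03 (adjusted p = 8.19e-07). Serpinh1, the collagen chaperone HSP47, was higher in ER-MyoD wt than in the control by 1.03 at 6 h and 0.95 at 12 h. Bmp1, a protease that matures procollagen and lysyl oxidase, was lower by -1.19 and -1.06. Averaged over its probe sets, the Bmp1 value at 12 h was -0.46 (adjusted p = 0.153). Of 8 other crosslinking and matricellular genes 5 were higher in ER-MyoD wt at 6 h, against 6.50% of all genes. Tnc, for tenascin C, was at 1753 ± 63.7 against 266 ± 29.0 (2.63, adjusted p = 1.35e-14), Sparc was higher by 1.02 and the transglutaminase Tgm2 by 1.39 (0.50 over all its probe sets, adjusted p = 0.0591). The Tnc value at 12 h was 1.38, and 0.26 over all its probe sets (adjusted p = 0.347). The Tgm2 value at 12 h (1.02, adjusted p = 0.0138) did not pass without ER-MyoD wt replicate 3 (0.137), empty retrovirus replicate 1 (0.0724) or empty retrovirus replicate 3 (0.0681).

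**Figure D3:**
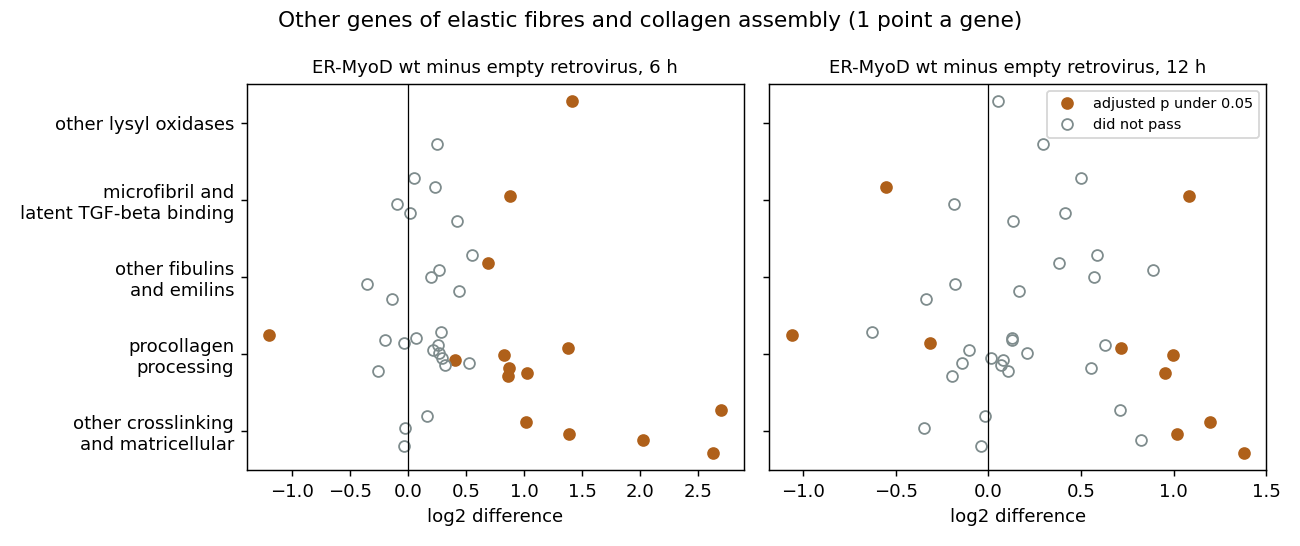
Log2 difference of ER-MyoD wt minus empty retrovirus for 41 other genes of elastic fibres and collagen assembly, by list, at 6 h (left) and 12 h (right), with 1 point a gene; filled points passed at an adjusted p under 0.05. At 6 h 14 filled points lie right of 0 and 1 left, and at 12 h 7 and 3.

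Within the set the patterns over the 10 group means fell into unlike pairs. Pearson's r was 0.92 for Mfap4 with Postn, 0.72 for Lox with Fbln5 and 0.71 for Mfap4 with Efemp1, and it was -0.44 for Fbln5 with Postn. Outside the set, the genes with a mean signal of at least 100 whose pattern was most like the mean pattern of the 8 were Cd248 (0.91), Rcn3 (0.90), Col1a1 (0.89), Gstm2 (0.88), Orai3 (0.87) and Ostc (0.86), among 8445 genes. Col1a1 was at 6735 ± 286 (SD, n = 3) in empty retrovirus cells, 4204 ± 780 in ER-MyoD RRR and 2563 ± 257 in ER-MyoD wt at 24 h. These are descriptions over groups that share arrays and scaling. The groups include ER-MyoD wt and empty retrovirus at 24 h, whose signals were in view when the set was chosen. The r values and the ranking of similar genes are therefore not independent of that choice. Mfap4 had means of 80.1 in ER-MyoD RRR and 516 in empty retrovirus cells at 24 h. In all other groups its means lay between 4.52 and 12.0, so its r values rest mainly on those 24 h groups.

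At 24 h the fibroblast markers had the same order of constructs as Lox, Fbln5, Postn, Efemp1 and Mfap4, and the skeletal muscle markers had the opposite order. The summed signal of the 10 fibroblast markers at 24 h ranged from 49550 to 61890 in empty retrovirus cells, from 42750 to 48940 in ER-MyoD RRR and from 28720 to 37870 in ER-MyoD wt, with no marker at 0 and the lowest group mean for Lum (25.2). In empty retrovirus cells it was 34640 to 40190 at 12 h. The sum of 11 skeletal muscle markers at 24 h ranged from 48390 to 56810 in ER-MyoD wt, from 33190 to 37190 in ER-MyoD RRR and from 417 to 490 in empty retrovirus cells. Their part in the levels of Lox, Fbln5, Postn, Efemp1 and Mfap4 was not tested.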

How the data were processed

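The values deposited by the authors are linear intensities, 1 for each probe set of a 1-colour array, and how they were computed is not given in the sources used here. Trimmed of the top and bottom 2%, every array averaged 150, so the arrays share a scale. Array medians ran from 38.0 to 64.1, and precision is limited by how few arrays a group has. The 45101 probe sets included 64 controls, which were dropped. Of the rest, 34945 have 1 symbol in the annotation, 932 several and 9160 none. Symbols were looked up by Entrez id (34741 matched, 0 changed). The probe set with the highest mean stood for a gene. Values entered as log2(signal + 16) after quantile normalization, with no filter on low values, so a log2 difference understates changes of dim genes. A limma 3.58.1 model in R 4.3.3 (1 mean per group, all 30 arrays, trended variance, 20 residual degrees of freedom) gave 14 tested and 6 described comparisons. Tests were two-sided, with Benjamini-Hochberg adjustment over 18193 genes in each comparison and a threshold of 0.05. Code was tested on simulated data. Plots used matplotlib 3.10.9.

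The genes and lists were chosen with earlier results of these data known. The genes named were the whole set, up to 3 genes with a call from each list of related genes (the largest differences at 12 h), the 6 genes with the most similar pattern, and Myod1 and Myog. The 12 h to 24 h differences within ER-MyoD wt and empty retrovirus cells, and the alternatives for related genes, were added after seeing the data. Pairing of arrays by replicate number was not detected. No comparison had all 3 same-numbered pairs with a correlation of deviations over 0.1 (range -0.11 to 0.12). This rule can miss a weak pairing, so counts with a replicate block are given below.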

Additional observations from a re-analysis of the deposited data

How the results depend on the processing

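Alternatives were median centring, the values as deposited, pseudocounts of 1 and 64, a filter on low signal (a group mean of 50), other uses of probe sets, no variance trend, only the groups compared, a replicate block, and arrays left out. Those for the related genes, and the 12 h to 24 h differences of ER-MyoD wt and empty retrovirus, were chosen after seeing the data. Over all alternatives, 2547 single-gene values of the set stayed on their side of the threshold or within the spread, 59 lost the call, 25 gained it, 39 moved by more than the spread and 2 turned sign (Lox, -0.026, and Loxl1, -0.062, from 12 h to 24 h in ER-MyoD RRR with all probe sets averaged). The number of the 8 genes called changed as follows. For ER-MyoD RRR minus wt at 12 h it was 0 under median centring and 0 with probe sets averaged, and 1 with all probe sets tested, 1 without the variance trend and 1 with only the groups compared. For ER-MyoD wt minus empty at 12 h it was 1 with probe sets averaged, and for ER-MyoD RRR minus empty at 12 h it was 2 as deposited. For ER-MyoD wt from 0 h to 6 h it was 1 under median centring, 1 with all probe sets tested and 1 without the trend. For ER-MyoD RRR from 6 h to 12 h it was 2 under median centring, 2 with probe sets averaged and 2 with only the groups compared. From 12 h to 24 h it was 3 under median centring, 3 as deposited, 3 without the trend and 2 with probe sets averaged, and from 6 h to 24 h it was 5 under median centring, 5 as deposited and 5 with probe sets averaged. For the change of ER-MyoD RRR minus wt it was 2 without the 3 arrays that stood apart.

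The median difference over the set at 24 h became -1.68 under median centring and -1.36 with probe sets averaged for ER-MyoD wt minus empty. With probe sets averaged it was 0.45 for ER-MyoD RRR minus wt, -0.92 for ER-MyoD RRR minus empty and 0.58 for empty retrovirus from 12 h to 24 h, and for ER-MyoD wt from 0 h to 24 h it was 0.10 as deposited. The cause of these shifts was not tested.

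Without single arrays, the counts ranged from 2 to 3 (6 h) and 1 to 3 (12 h) for ER-MyoD RRR minus wt, 3 to 4 and 2 to 2 for ER-MyoD wt minus empty, and 2 to 4 and 1 to 1 for ER-MyoD RRR minus empty. In ER-MyoD wt they were 1 to 2 (0 h to 6 h), 4 to 4 (0 h to 12 h) and 1 to 1 (6 h to 12 h). In ER-MyoD RRR they were 2 to 4 (6 h to 12 h), 3 to 5 (12 h to 24 h) and 3 to 4 (6 h to 24 h), and in empty retrovirus 0 to 0. For the change of ER-MyoD RRR minus wt they were 0 to 2. The 24 h medians ranged from -1.91 to -1.77, 0.67 to 0.76 and -1.20 to -0.99 between constructs, from -0.14 to -0.04 and -0.02 to 0.12 within ER-MyoD wt, and from 0.78 to 0.99 in empty retrovirus.

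With the replicate number as a block the counts were those of the fit without it, such as 2 for ER-MyoD RRR minus wt at 6 h and 4 for ER-MyoD wt minus empty at 6 h, and it changed no count for these 8 genes. Over the 41 related genes the counts with the block were 7 (6 h) and 4 (12 h) for ER-MyoD RRR minus wt, against 5 and 3, and 16 and 12 for ER-MyoD wt minus empty, against 15 and 10. Ltbp1 gained a call there for ER-MyoD RRR minus wt at 12 h (0.52, adjusted p = 0.0358, limma). Of 114 sets of arrays compared by number, 43 correlated best with their own. Median centring moved the share of higher calls among all genes, for example from 51.1% to 72.3% for ER-MyoD wt minus empty at 6 h and from 44.5% to 21.7% for ER-MyoD RRR minus wt at 6 h. It moved the median of all genes by over 0.1 in 4 of these comparisons, from -0.01 to 0.10 for ER-MyoD wt minus empty at 6 h, from -0.02 to 0.10 for ER-MyoD RRR minus empty at 12 h, from 0.01 to -0.13 for ER-MyoD RRR from 12 h to 24 h and from -0.02 to -0.13 from 6 h to 24 h. As deposited it moved in the last 2, to 0.11 in both.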
